A study of Drosophila melanogaster with 16 samples.

Results

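The genes described here are 12 transcripts of Drosophila melanogaster that were scarce at nuclear cycle 14 (NC14, stage 5) and well expressed at stages 7 to 8 (St7-8) in embryos of 1 genotype, Su(var)3-9. They were chosen from the 17753 genes counted, by level in CPM, the count scaled to a library total of 1000000. Both Su(var)3-9 libraries of St7-8 had to reach 10 CPM, and the lower of them had to be at least 8 times the higher of the Su(var)3-9 libraries of NC14. Hox genes, segment polarity genes and genes of the E(spl) complex were left out. The choice used the 4 Su(var)3-9 libraries alone, so the other 12 libraries could be tested for the same change.

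RNA was counted in 16 libraries, with 2 libraries in each of 8 groups, and each library came from a pool of 50 hand-sorted embryos. Eggs were laid for 1 h and aged for 2 h at 25 °C, and stranded libraries were made from total RNA. The Jasper allele Su113 had the genotype wm4h;JasperSu113/JasperSu113, the allele Su140 had wm4h;JasperSu140/JasperSu140, the Su(var)3-9 group was homozygous for allele 06 of that gene on wm4h, and the control wm4h had wm4h;+/+, each at St7-8 and at NC14. All of them therefore carried wm4h, an inversion on the X that brings the pigment gene w up against heterochromatin. Nothing in the labels says that the 2 pools of a group came from separate cultures, so p-values here measure only how far such pools differ, which may be technical in part.

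At nuclear cycle 14 the embryo's own genome becomes broadly active while the nuclei of the blastoderm are enclosed by membranes. By stages 7 to 8 gastrulation is under way, the germ band extends, and the mesoderm, the ectoderm and the first neural and blood cell precursors take on separate identities. Genes scarce at the earlier stage and active at the later one may be part of that programme, which was not tested here. JASPer acts on chromatin through a PWWP domain, which recognises histones with a methyl mark. Su(var)3-9 places a methyl mark on histones in heterochromatin. These are not taken here to be the same mark.

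Depth was high in every library, at 43466130 to 92790237 counts, so that 3 counts stand for 0.0323 to 0.0690 CPM. This floor covers counting error alone, since the reads carry no molecular identifiers. Jasper itself lay between 120 and 147 CPM in Su113, between 129 and 155 CPM in Su140 and between 110 and 156 CPM in wm4h, and the Su(var)3-9 transcript lay between 109 and 172 CPM in Su(var)3-9 embryos and between 84.9 and 141 CPM in wm4h, so the counts do not check these labels. Some St7-8 libraries stood apart from their labels. The summed level of 8 early zygotic genes of cellularization, which fall after NC14, was 5529 CPM in replicate 2 of wm4h at St7-8, against 4209 and 4885 CPM in wm4h at NC14, while replicate 1 of wm4h at St7-8 had 2106 CPM. In the Su(var)3-9 libraries of St7-8, which chose the genes, this sum was 226 and 222 CPM. The St7-8 libraries of Su113, Su140 and wm4h had 1867 to 5529 CPM. How far this bears on the levels of the chosen genes in each genotype was not tested. The summed level of 15 genes of older embryos, mostly of muscle and nerve, was 1062 CPM in replicate 2 of Su113 and 961 CPM in replicate 2 of Su140 at St7-8, and 13.4 to 213 CPM in the other 6 libraries of that stage. At NC14 this sum was 4.42 to 16.3 CPM, and 12 to 14 of the 15 genes were above 0 in each library, with Cpr65Az at 0 in 15 of the 16 libraries. A list of 14 genes of ovary and adult tissue summed to 0.522 to 2.21 CPM.

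The 12 genes together had 188 and 122 CPM in Su113 at St7-8, against 9.55 and 10.8 CPM at NC14. They had 415 and 410 CPM in Su140 at St7-8, against 6.47 and 30.9 CPM at NC14, and 102 and 55.7 CPM in wm4h at St7-8, against 10.6 and 18.3 CPM at NC14. In all 3 genotypes both St7-8 libraries were above both NC14 libraries in this sum, and Su140 was the highest of the 3 at St7-8.

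**Figure D1:**
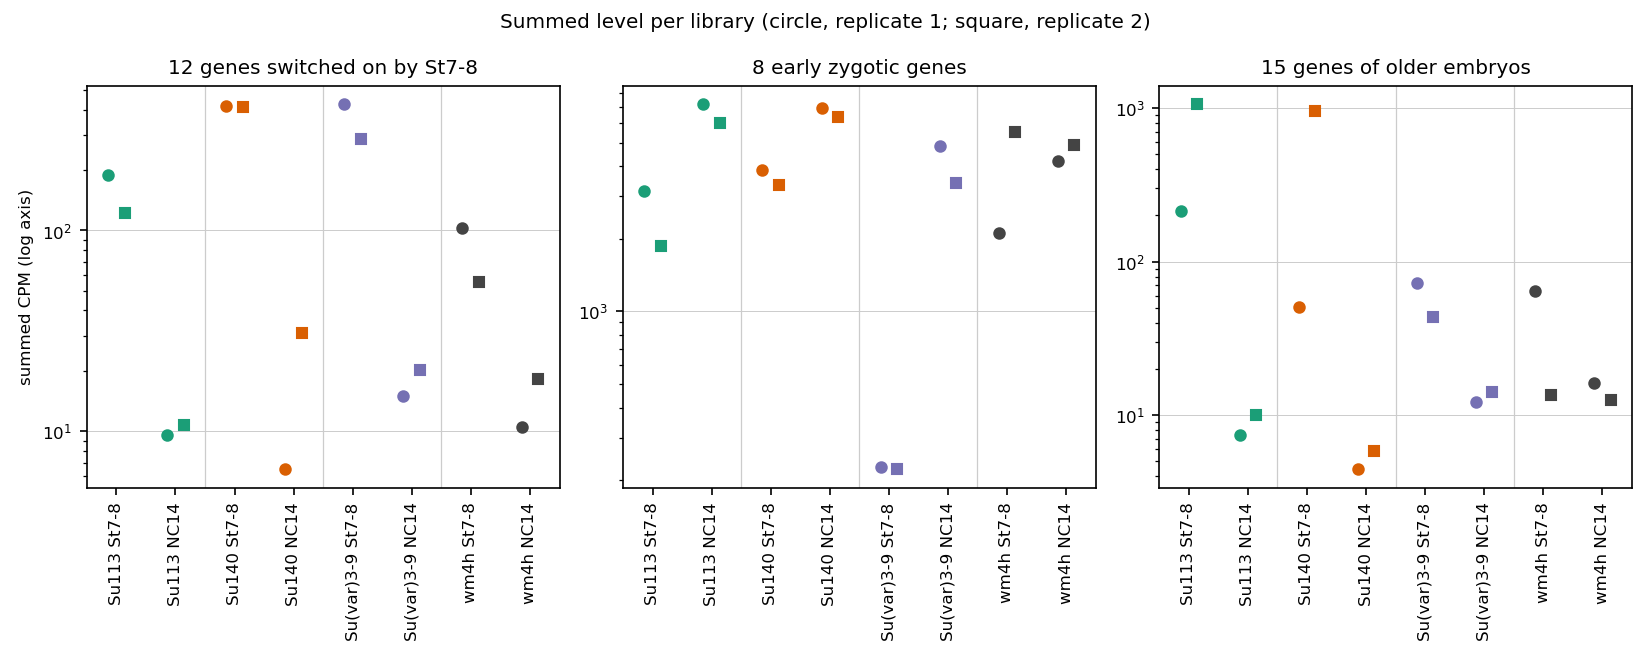
Summed CPM in each library (log axis) of the 12 genes, of 8 early zygotic genes and of 15 genes of older embryos, by genotype and stage, with circles for replicate 1 and squares for replicate 2. The 12 genes were higher at St7-8 in every genotype, while the early zygotic sum of replicate 2 of wm4h at St7-8 (5529 CPM) lay above both NC14 libraries of wm4h (4209 and 4885 CPM) and the older-embryo sum was highest in replicate 2 of Su113 and of Su140 at St7-8 (1062 and 961 CPM). The early zygotic sum was lowest in the Su(var)3-9 libraries of St7-8 (226 and 222 CPM).

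The values that chose the genes are a description and support no test. The lower Su(var)3-9 library of St7-8 was 38.6 times the higher NC14 library for HGTX, 37.1 times for Apoltp and 27.7 times for CG43980. It was 20.2 times for CNT2, 15.3 for Toll-7, 14.7 for Sox21a, 14.6 for CG34025, 10.6 for CG3829 and 10.3 for Hml. The 3 genes just inside the threshold were bru2 at 9.25, cv-d at 8.74 and CG32053 at 8.22, and those just outside it were amd at 7.52, Cln7 at 7.13 and ct at 6.88. E(spl)mgamma-HLH at 84.1 also met both thresholds and was left out by its name. Of all genes, 5778 reached 10 CPM in both Su(var)3-9 libraries of St7-8.

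Regulators of transcription and RNA come first. HGTX (FBgn0040318, chromosome arm 3L, 14583222 to 14599540, minus strand, in the dm6 build as are all positions here) encodes a homeodomain protein of the Nkx6 type that acts in motor neuron identity. Its level was 4.29 and 2.02 CPM in Su113 at St7-8, against 0.246 and 0.213 CPM at NC14. It was 13.0 and 8.95 CPM in Su140 at St7-8, against 0.0888 and 1.19 CPM at NC14, and 5.66 and 3.03 CPM in wm4h at St7-8, against 0.201 and 0.393 CPM at NC14. No library of one stage overlapped the other stage in any of the 3 genotypes, and Su140 was above both Su113 and wm4h at St7-8.

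Sox21a (FBgn0036411, 3L, 14103481 to 14108118, minus strand) encodes an HMG-box transcription factor best known from adult intestinal stem cells. It had 2.29 and 1.24 CPM in Su113 at St7-8, against 0.0893 and 0.346 CPM at NC14, and 6.46 and 4.76 CPM in Su140 at St7-8, against 0.118 and 0.712 CPM at NC14. In wm4h it had 4.93 and 2.64 CPM at St7-8, against 0.704 and 0.425 CPM at NC14. Both Su113 libraries of St7-8 were below both wm4h libraries, and the Su140 and wm4h libraries overlapped.

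bru2 (FBgn0262475, 2L, 12344219 to 12397528, plus strand) encodes an RNA-binding protein of the Bruno family. Su113 had 12.9 and 8.08 CPM at St7-8, against 0.726 and 1.37 CPM at NC14. Su140 had 34.6 and 32.0 CPM at St7-8, against 0.326 and 4.12 CPM at NC14, and wm4h had 9.00 and 4.36 CPM at St7-8, against 1.76 and 1.15 CPM at NC14. The Su140 libraries of St7-8 stood above every Su113 and wm4h library of that stage. In each genotype the stages were apart.

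Carriers and receptors of lipid made up a second set. Apoltp (FBgn0032136, 2L, 9634179 to 9656026, plus strand) encodes the apolipoprotein of the lipid transfer particle, which loads lipid onto lipophorin in the blood of the fly. Its level was 84.0 and 65.5 CPM in Su113 at St7-8, against 0.871 and 1.04 CPM at NC14, and 79.2 and 119 CPM in Su140 at St7-8, against 0.252 and 3.77 CPM at NC14. In wm4h it was 4.96 and 3.22 CPM at St7-8, against 0.101 and 0.153 CPM at NC14. The mean at St7-8 was 78.3 times the mean at NC14 in Su113, 49.2 times in Su140 and 32.3 times in wm4h. Both alleles were above wm4h at each stage with no overlap. The gap was wide at St7-8, while at NC14 the lowest library of the alleles, at 0.252 CPM, was near the higher wm4h library.

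cv-d (FBgn0265048, 3R, 15844466 to 15853581, minus strand) encodes a lipoprotein related to vitellogenins that is needed for crossveins in the wing. It had 10.5 and 9.89 CPM in Su113 at St7-8, against 1.04 and 1.29 CPM at NC14, and 27.1 and 18.5 CPM in Su140 at St7-8, against 0.503 and 1.22 CPM at NC14. In wm4h it had 8.41 and 5.16 CPM at St7-8, against 0.939 and 2.69 CPM at NC14. Both alleles were above wm4h at St7-8 without overlap, Su140 by more.

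CG3829 (FBgn0035091, 2R, 24986044 to 24990489, plus strand) belongs to the class B scavenger receptors, a family that takes up lipids and lipoproteins. Su113 had 5.03 and 7.32 CPM at St7-8, against 1.49 and 0.945 CPM at NC14, and Su140 had 20.9 and 20.4 CPM at St7-8, against 0.843 and 1.33 CPM at NC14. In wm4h it had 8.42 and 3.97 CPM at St7-8, against 2.48 and 2.83 CPM at NC14. Stages did not overlap in any of the 3 genotypes, and wm4h had the smallest step, a mean 2.34 times that of NC14. Its exons overlap those of emp, another scavenger receptor gene on the opposite strand whose highest level was 36.4 CPM, and the strand setting of the counting was not given in the sources used here, so reads of these 2 genes cannot be told apart.

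Among transporters and surface receptors, CNT2 (FBgn0025709, 2R, 9078721 to 9082374, plus strand) encodes a concentrative nucleoside transporter. It had 6.11 and 3.34 CPM in Su113 at St7-8, against 0.134 and 0.133 CPM at NC14. Su140 had 8.42 and 2.91 CPM at St7-8, against 0.0592 and 1.83 CPM at NC14, and wm4h had 4.87 and 1.89 CPM at St7-8, against 0.0670 and 0.382 CPM at NC14. The 3 genotypes overlapped at St7-8, and the 2 libraries of Su140 at NC14 lay far apart.

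Toll-7 (FBgn0034476, 2R, 19826578 to 19832973, plus strand, a single exon) encodes a receptor of the Toll family, relatives of which guide cell movements in the extending germ band. Its level was 38.3 and 19.3 CPM in Su113 at St7-8, against 3.75 and 4.14 CPM at NC14, and 81.2 and 85.4 CPM in Su140 at St7-8, against 1.30 and 4.90 CPM at NC14. In wm4h it was 32.3 and 16.5 CPM at St7-8, against 2.88 and 6.25 CPM at NC14. Su113 and wm4h overlapped at St7-8, and Su140 was above both.

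Hml (FBgn0029167, 3L, 13846054 to 13860001, plus strand) encodes Hemolectin, a clotting protein made by haemocytes, the blood cells of the fly. It had 0.658 and 0.276 CPM in Su113 at St7-8, against 0.179 and 0.213 CPM at NC14. Su140 had 88.6 and 82.1 CPM at St7-8, against 2.71 and 2.24 CPM at NC14, and wm4h had 0.495 and 1.62 CPM at St7-8, against 0.302 and 1.92 CPM at NC14. Hml was therefore near the bottom of its range in Su113 and wm4h at both stages, and in wm4h the stages overlapped. In the Su(var)3-9 libraries that chose it the pools of St7-8 also lay far apart, at 55.9 and 10.3 CPM. Fewer cells of a type and less RNA per cell cannot be told apart in such whole-embryo pools.

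No role is given here for CG32053, CG34025 and CG43980, which are named by number in the annotation. CG32053 (FBgn0052053, 3L, 10090170 to 10092346, minus strand) lies within dpr6 on the opposite strand, with no exon in common, and had 2.25 and 0.552 CPM in Su113 at St7-8, against 0.223 and 0.306 CPM at NC14. In Su140 it had 8.71 and 3.00 CPM at St7-8, against 0.237 and 1.04 CPM at NC14, and in wm4h 4.26 and 2.34 CPM at St7-8, against 0.302 and 0.109 CPM at NC14. Both Su113 libraries of St7-8 were below both wm4h libraries.

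CG34025 (FBgn0054025, 3L, 2959722 to 2961049, minus strand), the shortest of the 12 genes, had 7.12 and 1.43 CPM in Su113 at St7-8, against 0.0893 and 0.506 CPM at NC14. It had 29.6 and 7.83 CPM in Su140 at St7-8, against 0.0296 and 7.04 CPM at NC14, and 8.95 and 6.14 CPM in wm4h at St7-8, against 0.570 and 1.07 CPM at NC14. Replicate 2 of Su140 at NC14 was therefore almost as high as replicate 2 of St7-8.

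CG43980 (FBgn0264711, 3L, 21644958 to 21666306, plus strand) had 14.7 and 3.31 CPM in Su113 at St7-8, against 0.715 and 0.293 CPM at NC14. In Su140 it had 17.1 and 25.2 CPM at St7-8, against 1.47 CPM in replicate 2 of NC14 and 0 counts in replicate 1, which allows up to 0.0444 CPM. In wm4h it had 10.2 and 4.75 CPM at St7-8, against 0.268 and 0.927 CPM at NC14. Stages were apart in all 3 genotypes, and Su140 was above wm4h at St7-8 without overlap.

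**Figure D2:**
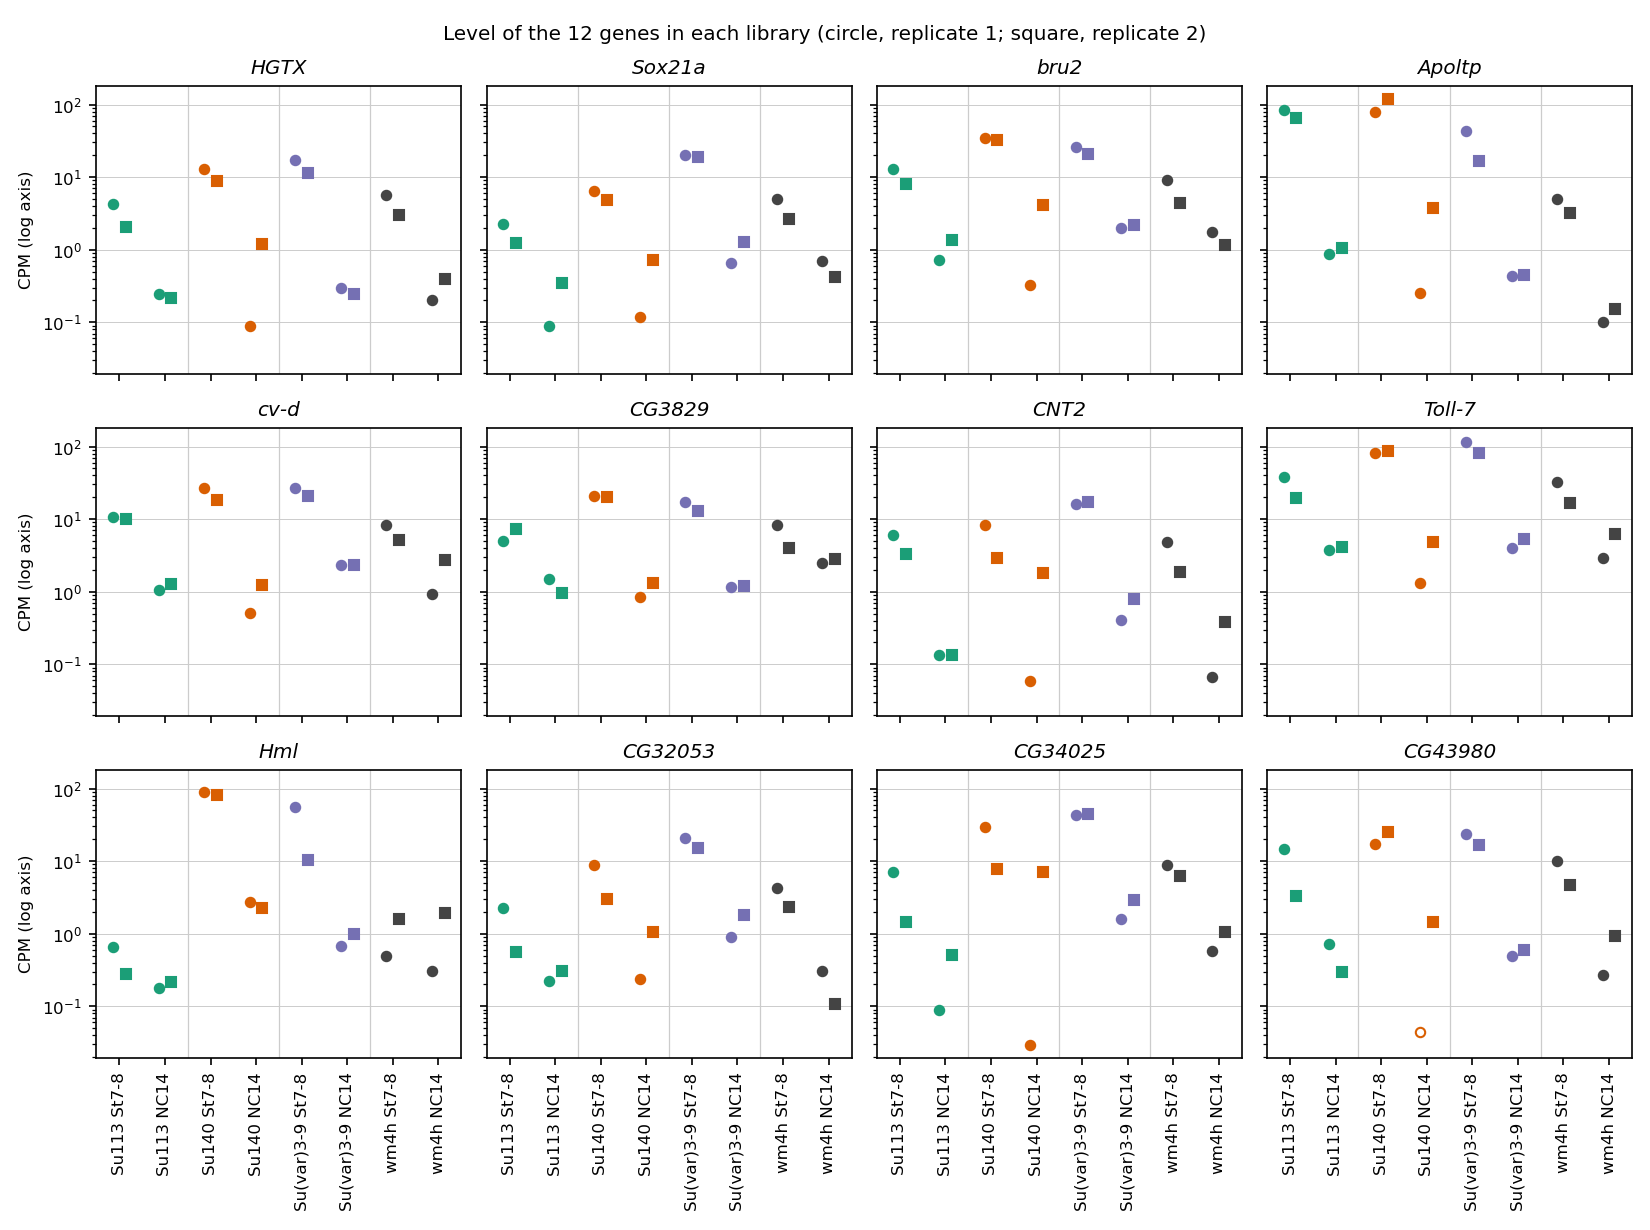
CPM (log axis) of each of the 12 genes in every library, by genotype and stage, with circles for replicate 1, squares for replicate 2 and an open marker at the floor of 3 counts for the library with 0 counts of CG43980. Most genes stepped up between NC14 and St7-8 in every genotype, Apoltp was high in both Jasper alleles (65.5 to 119 CPM at St7-8, against 3.22 to 4.96 CPM in wm4h), and Hml was high in Su140 (82.1 to 88.6 CPM) and low in Su113 and wm4h (0.276 to 1.62 CPM).

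The stage change was then tested in each of the 3 genotypes that the choice had not used. Changes are log2 fold changes ± SE of a quasi-likelihood model of edgeR over 12151 genes, with p-values adjusted by Benjamini-Hochberg over all of them and a threshold of 0.05. All 12 genes passed the filter on low counts. In Su113, 6 of the 12 rose and 0 fell, where 9.93% of all genes tested rose and 3.32% fell. Apoltp rose by 6.10 ± 0.96 (adjusted p = 0.00968), CNT2 by 4.93 ± 1.42 (adjusted p = 0.0499) and HGTX by 3.58 ± 0.99 (adjusted p = 0.0445). The Toll receptor and the other lipid genes joined them, cv-d at 2.94 ± 0.57 (adjusted p = 0.0163), Toll-7 at 2.67 ± 0.62 (adjusted p = 0.0268) and CG3829 at 2.15 ± 0.43 (adjusted p = 0.0172). The other 6 were CG43980 at 3.95 ± 1.52 (adjusted p = 0.103), CG34025 at 3.66 ± 1.73 (adjusted p = 0.16), bru2 at 3.13 ± 0.92 (adjusted p = 0.0527), Sox21a at 2.83 ± 0.89 (adjusted p = 0.0625), CG32053 at 2.21 ± 0.94 (adjusted p = 0.130) and Hml at 1.10 ± 0.86 (adjusted p = 0.376). Both St7-8 libraries were above both NC14 libraries for all 12 genes, as for 46.3% of all genes. The median change was 3.04 over the 12 genes and 0.11 over all genes. The calls depended on single Su113 libraries. Without either NC14 library all 6 calls were lost, as were nearly all calls over the whole table. CNT2, Toll-7 and HGTX did not pass without replicate 1 of St7-8, and only Apoltp passed without replicate 2 of St7-8. With any 1 of these 4 libraries left out, Apoltp ran between 5.90 and 6.21, CNT2 between 4.43 and 5.25 and HGTX between 2.93 and 3.97. The range was 2.77 to 3.05 for cv-d, 2.09 to 3.03 for Toll-7 and 1.80 to 2.49 for CG3829.

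In Su140, 9 of the 12 genes rose and 0 fell, where 15.7% of all genes tested rose and 8.7% fell. The steepest was Apoltp at 5.46 ± 0.93 (adjusted p = 0.00729), followed by Hml at 4.97 ± 0.85 (adjusted p = 0.00778), Toll-7 at 4.60 ± 0.67 (adjusted p = 0.00498), cv-d at 4.58 ± 0.62 (adjusted p = 0.00442) and CG3829 at 4.11 ± 0.47 (adjusted p = 0.00316). The regulators rose as well, HGTX by 3.96 ± 0.99 (adjusted p = 0.0258), bru2 by 3.76 ± 0.94 (adjusted p = 0.0261) and Sox21a by 3.61 ± 0.91 (adjusted p = 0.0265), as did CG32053 by 3.06 ± 0.96 (adjusted p = 0.0462). CG43980 at 4.69 ± 1.56 (adjusted p = 0.0540), CNT2 at 2.46 ± 1.25 (adjusted p = 0.159) and CG34025 at 2.28 ± 1.59 (adjusted p = 0.289) did not pass, and these had the largest ratios between the 2 Su140 libraries of NC14. All 12 had both St7-8 libraries above both NC14 libraries, as did 42.8% of all genes, and the median change was 4.04 over the 12 genes and 0.17 over all genes. Without replicate 1 of NC14 only Apoltp still passed, and nearly all calls over the whole table were lost as well. Without replicate 2 of NC14 Hml (0.0835) and CG32053 (0.102) dropped out and CG43980 passed (0.0295). Leaving out replicate 1 of St7-8 ended the calls of Sox21a (0.0508) and CG32053 (0.172), and leaving out replicate 2 ended those of Sox21a (0.0535), bru2 (0.0608) and CG32053 (0.0615).

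Of the 6 genes that rose in Su113 and the 9 that rose in Su140, 5 were the same: Apoltp, cv-d, CG3829, Toll-7 and HGTX, that is 5 of 6 and 5 of 9. CNT2 passed in Su113 and not in Su140, and Sox21a, bru2, Hml and CG32053 passed in Su140 and not in Su113. The difference of the stage change between the 2 alleles was not tested.

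In wm4h 11 of the 12 changes were positive but none passed: edgeR called 0 of the 12 and 0 of all 12151 genes, which is 0% of the genes tested. At an unadjusted p under 0.05, 10 of the 12 genes and 1279 of all genes differed, and 4.16% of all genes were higher at that level. DESeq2 called 5 of the 12, namely Apoltp, HGTX, CG32053, Toll-7 and cv-d, and 329 genes in all, with 1.35% of the genes to which it gave an adjusted p higher. The largest change was that of Apoltp at 4.78 ± 1.02 (adjusted p = 0.391), then CG32053 at 3.83 ± 1.01, CNT2 at 3.69 ± 1.34, HGTX at 3.67 ± 0.98, CG43980 at 3.44 ± 1.48 and CG34025 at 3.02 ± 1.65. Smaller changes were those of Sox21a at 2.55 ± 0.87, Toll-7 at 2.23 ± 0.61, bru2 at 2.01 ± 0.88, cv-d at 1.72 ± 0.55 and CG3829 at 1.03 ± 0.42, and Hml stood at -0.21 ± 0.75. For 11 of the 12 genes both St7-8 libraries were above both NC14 libraries, as for 29.3% of all genes, with Hml the exception. The median was 2.79 over the 12 genes and 0.04 over all genes. Replicate 1 was the higher of the 2 wm4h libraries of St7-8 for 11 of the 12 genes. This order was not particular to wm4h. At the same stage replicate 1 was the higher for 10 of the 12 genes with Su(var)3-9, 11 with Su113 and 9 with Su140. The share over all genes was not counted. Early zygotic genes were at the NC14 level in replicate 2 of wm4h, and how far this bears on the order was not tested. With any 1 of the 4 wm4h libraries left out, 0 of the 12 passed. Without replicate 2 of wm4h and without replicate 2 of Su113 and of Su140 at St7-8, an alternative chosen after seeing the data, 1 of the 12 passed in wm4h, CG32053 at 4.19 (adjusted p = 0.0445).

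**Figure D3:**
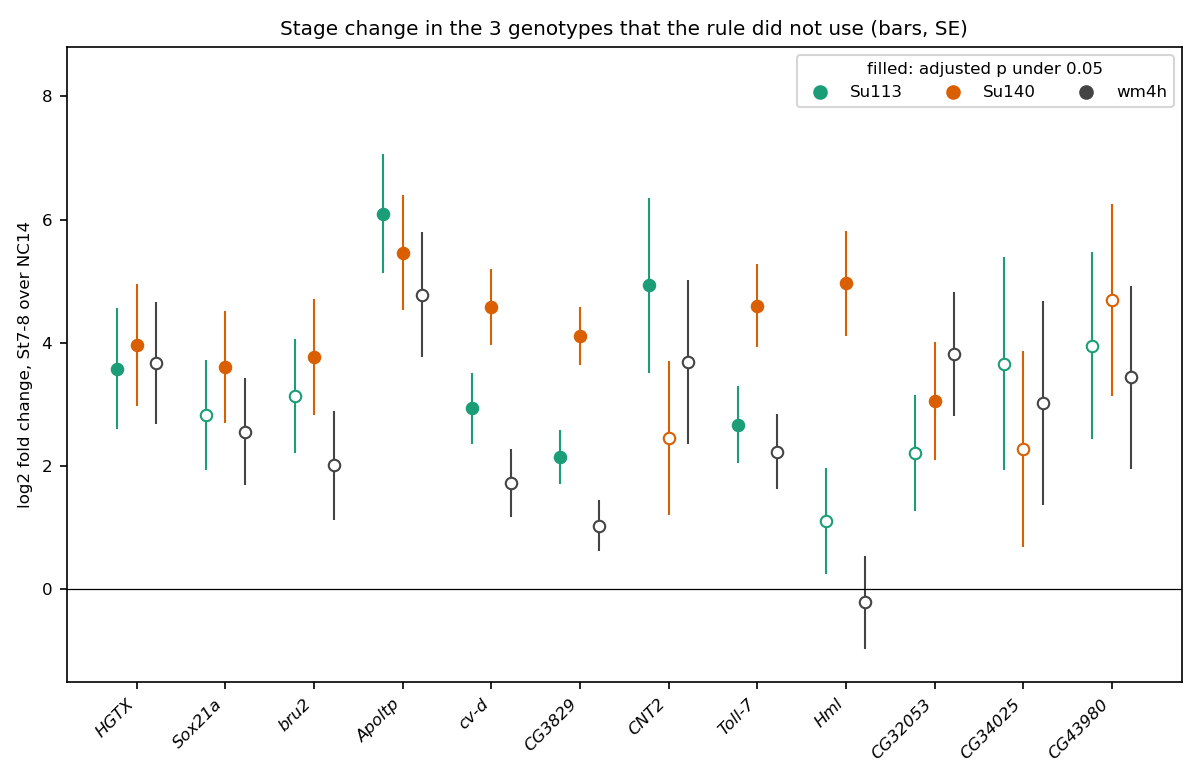
Log2 fold change of St7-8 over NC14 with SE bars for each of the 12 genes in Su113, Su140 and wm4h, filled where the adjusted p of edgeR was under 0.05. Every gene was above 0 in both alleles, 6 were filled in Su113, 9 in Su140 and 0 in wm4h, and Hml was the single gene below 0 (-0.21 in wm4h).

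The 8-fold step between the lower St7-8 and the higher NC14 library, which defined the set, was also counted in the 3 genotypes. In Su113 it was met by Apoltp, CNT2 and HGTX, 3 of 12, as by 7.17% of all genes tested. In Su140 it was met by Apoltp, CG3829, CG43980, Hml, Toll-7 and cv-d, 6 of 12, as by 5.57% of all genes, and in wm4h by Apoltp alone, 1 of 12, as by 1.02% of all genes. HGTX at 7.71 times and CG32053 at 7.76 times came nearest to it in wm4h. Apoltp is thus the 1 gene of the 12 with that step in each genotype.

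Against wm4h at St7-8, 1 of the 12 genes passed in each allele, Apoltp in Su113 and Hml in Su140. The Su113 and Su140 libraries overlapped in Apoltp, which missed the threshold in Su140, so these calls do not set the alleles apart in that gene. These comparisons share the wm4h libraries, so their values are set side by side and were not combined. In Su113, Apoltp was 4.10 ± 0.87 higher (adjusted p = 0.0498, both libraries above both of wm4h), 1 of 12 against 1.57% of all genes, and 0 of 12 were lower against 0.362%. At an unadjusted p under 0.05 Apoltp was again the 1 gene of the 12, and 14% of all genes were higher at that level. The other 11 ran between -1.32 ± 0.90 for CG32053 and 0.57 ± 0.85 for bru2, and the median of the 12 was 0.04. The call of Apoltp stood close to the threshold and was lost without replicate 2 of Su113 (4.22, adjusted p = 0.126), without replicate 1 of wm4h (4.32, adjusted p = 0.131) and without replicate 2 of wm4h (3.84, adjusted p = 0.313), and with the replicate block (4.09, adjusted p = 0.0636), DESeq2 size factors (4.10, adjusted p = 0.0537) or the St7-8 libraries alone (4.04, adjusted p = 0.0774).

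In Su140, Hml was 6.21 ± 0.91 higher than in wm4h (adjusted p = 0.0251, both libraries above both of wm4h), 1 of 12 against 0.551% of all genes, and 0 of 12 were lower against 0.362%. Its call was lost without replicate 2 of Su140 (6.29, adjusted p = 0.0547), without replicate 1 of wm4h (5.60, adjusted p = 0.0739), without replicate 2 of wm4h (7.44, adjusted p = 0.155) and with the St7-8 libraries alone (6.19, adjusted p = 0.162). Apoltp was at 4.53 ± 0.88 (adjusted p = 0.0540), bru2 at 2.26 ± 0.88 (adjusted p = 0.279), Toll-7 at 1.71 ± 0.59 (adjusted p = 0.223), cv-d at 1.69 ± 0.54 (adjusted p = 0.195) and CG3829 at 1.68 ± 0.42 (adjusted p = 0.108). Those 5 and Hml were the 6 genes with an unadjusted p under 0.05, and 9.76% of all genes were higher at that level. All 12 log2 fold changes were positive, with a median of 1.56 against 0.06 over all genes. For 8 of the 12 both Su140 libraries were above both wm4h libraries, as for 26.3% of all genes, whereas in Su113 this held for Apoltp and cv-d, 2 of 12, against 30.6% of all genes.

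**Figure D4:**
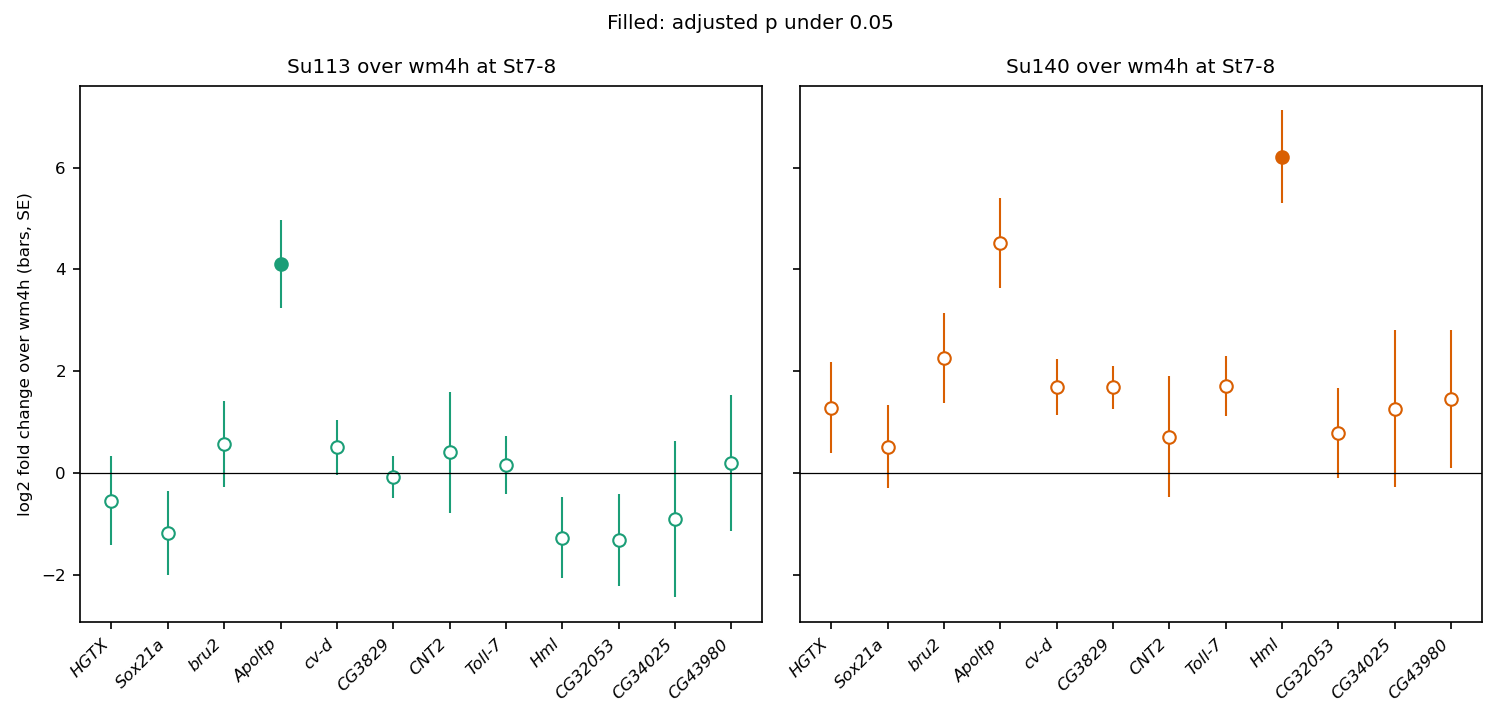
Log2 fold change over wm4h at St7-8 with SE bars for each of the 12 genes, Su113 in one panel and Su140 in the other, filled where the adjusted p of edgeR was under 0.05. In Su113 Apoltp stood alone at 4.10 and the others lay between -1.32 and 0.57, and in Su140 all 12 were above 0 with Hml at 6.21 and Apoltp at 4.53.

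Levels of muscle and nerve genes of older embryos are given here beside those of Apoltp and Hml. The muscle gene Mhc, 1 of the 15 genes of that list, had 98.8 and 544 CPM in Su113 at St7-8, 0.354 and 484 CPM in Su140 and 9.97 and 0.362 CPM in wm4h. Replicate 1 of Su140 had Mhc at the level of wm4h replicate 2, the library whose early zygotic genes were at the NC14 level. Over the whole list these 2 libraries were not alike. The sum of the 15 older-embryo genes was 51.0 CPM in that Su140 library, against 64.6 CPM in replicate 1 and 13.4 CPM in replicate 2 of wm4h. In the same Su140 library Apoltp had 79.2 CPM and Hml 88.6 CPM. In Su113, where the older-embryo sum was 213 and 1062 CPM at St7-8, Hml had 0.658 and 0.276 CPM. The part of RNA of older embryos in the values of these libraries was not tested.

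The 2 alleles differed from each other in Hml at St7-8. Hml was at -7.49 ± 0.97 in Su113 over Su140 (adjusted p = 0.0144, both Su113 libraries below both of Su140), 1 of 12 lower against 0.296% of all genes, and 0 of 12 were higher against 1.46%. Without replicate 2 of Su113 its call was lost (-7.06, adjusted p = 0.0795), as it was with the St7-8 libraries alone (-7.50, adjusted p = 0.238). Next was CG3829 at -1.77 ± 0.42 (adjusted p = 0.0760), while Apoltp, high in both alleles, was at -0.43 ± 0.76. All 12 changes were negative, with a median of -1.69 against 0.02 over all genes, and for 10 of the 12 both Su140 libraries were above both Su113 libraries, as for 22.8% of all genes. Apoltp and CNT2 overlapped.

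At NC14, before the step, none of the 12 genes passed against wm4h in either allele. In Su113 edgeR called 0 of 12 higher against 0.148% of all genes and 0 of 12 lower against 0.255%, with Apoltp at 2.79 ± 1.02 (adjusted p = 0.288), Hml at -2.59 ± 0.84 (adjusted p = 0.257) and CG3829 at -1.20 ± 0.42 (adjusted p = 0.283) as the 3 genes with an unadjusted p under 0.05, a level at which 5.09% of all genes were higher and 8.3% lower. In Su140 it called 0 of 12 higher against 2.03% and 0 of 12 lower against 4.91%, with Apoltp at 3.84 ± 1.01 (adjusted p = 0.0518) and CG3829 at -1.39 ± 0.42 (adjusted p = 0.0801) as the 2 genes with an unadjusted p under 0.05, where 10.3% of all genes were higher and 15.9% lower. DESeq2 called Apoltp higher and Hml lower in Su113, 1 of 12 each against 2.42% and 3.57% of the genes to which it gave an adjusted p, and Apoltp higher and CG3829 lower in Su140, 1 of 12 each against 9.46% and 13.4%. In Su140 these counts were near the share over all genes. Apoltp, the lipid carrier, was above both wm4h libraries at this stage in all 4 libraries of the alleles, at 0.252 to 3.77 CPM against 0.101 and 0.153 CPM, and CG3829 was below both wm4h libraries in all 4.

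Whether the step itself differed between an allele and wm4h was tested directly. For Su113 edgeR called 0 of 12 genes, against 0.0165% of all genes higher and 0% lower, 0 of the 12 had an unadjusted p under 0.05 (13.9% of all genes did), and the smallest adjusted p was 0.428, for CG3829 at 1.11 ± 0.59. For Su140 it called 0 of 12, against 0.00823% higher and 0% lower, and 4 genes had an unadjusted p under 0.05, where 14.6% of all genes were higher. These were Hml at 5.18 ± 1.10 (adjusted p = 0.0766), CG3829 at 3.07 ± 0.60 (adjusted p = 0.0732), cv-d at 2.86 ± 0.77 (adjusted p = 0.108) and Toll-7 at 2.37 ± 0.84 (adjusted p = 0.152). DESeq2 called 0 genes of the 12 for Su113, against 6.85% of the genes to which it gave an adjusted p, and the same 4 genes higher for Su140, against 11.4%. A larger step in Su140 or Su113 than in wm4h was therefore not shown by the main edgeR fit for any of the 12 genes. With no filter on low counts, edgeR did call some of the 12 for Su140. For Apoltp the difference of the stage change was 1.31 ± 1.33 in Su113 and 0.68 ± 1.33 in Su140.

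Set in order by group mean at St7-8, Su140 was the highest of Su113, Su140 and wm4h for all 12 genes, and the lowest was Su113 for 6 genes and wm4h for the other 6. Beside them, as a description, the Su(var)3-9 mean was the highest of all 4 genotypes for 7 genes and Su140 for 5, namely Apoltp, CG3829, CG43980, Hml and bru2. Both Su(var)3-9 libraries were above both wm4h libraries for all 12 genes at St7-8, which the choice on Su(var)3-9 favours. For this separation and for the orders of means above, the share over all genes was not counted, so these counts support no test. Per kilobase of exon, CG34025 was the most abundant in wm4h at 6.28 CPM per kb, with Toll-7 next at 3.81, and Hml the least at 0.0898. In Su113 Apoltp led at 5.61 CPM per kb and Hml was last at 0.0397, and in Su140 CG34025 at 15.6 and Toll-7 at 13.0 led, with Apoltp at 7.43 and Hml at 7.26 CPM per kb after them. Hml thus went between the bottom of the 12 in Su113 and wm4h and the fourth place in Su140.

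Relatives of these genes were counted from lists chosen with the members known. Of 16 tested genes of haemocytes and crystal cells, Hml included, 4 rose and 0 fell with stage in Su113 (median 0.91), 12 rose and 0 fell in Su140 (median 3.78), and 0 passed in wm4h (median 0.26), where 9.93% of all genes rose in Su113, 15.7% in Su140 and 0% in wm4h. The summed level of this list was 628 and 790 CPM in Su113, 702 and 1132 CPM in Su140 and 627 and 255 CPM in wm4h at St7-8. In Su113 and Su140 the higher sum was that of replicate 2, whose older-embryo sums were 1062 and 961 CPM. In wm4h the lower sum was that of replicate 2, whose early zygotic genes were at the NC14 level. Among the genes of the list eater was at 0 in 12 of the 16 libraries, NimC1 in 7, and gcm2 and PPO1 in 2 each. The haemocyte genes vkg, Col4a1, Ppn and crq were those that rose in Su113, and vkg, Col4a1 and Ppn rose in Su140 as well. Su140 also had rises of Pxn and SPARC, of srp, ush, gcm and Pvr, which act early in blood cell fate, of PPO1 and PPO2 of crystal cells, and of Hml. The difference of these stage changes between the alleles was not tested. Against wm4h at St7-8, 4 of the 16 were higher in Su140, against 0.551% of all genes, and 1 in Su113, against 1.57%, and PPO1 had 2.22 and 14.3 CPM in Su140, 0.181 and 0.644 CPM in Su113 and 0 counts in both wm4h libraries.

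A partner of Apoltp was higher than wm4h in both alleles at St7-8. apolpp, which encodes the lipophorin that Apoltp loads, had 851 and 861 CPM in Su113, 368 and 936 CPM in Su140 and 85.7 and 39.6 CPM in wm4h at St7-8, and over wm4h it stood at 3.69 ± 0.44 for the allele Su113 (adjusted p = 0.00816) and at 3.31 ± 0.43 for the allele Su140 (adjusted p = 0.0176), without overlap. Of 6 tested lipoprotein and lipoprotein receptor genes, Apoltp and cv-d included, 4 rose and 0 fell with stage in Su113 and 3 rose and 2 fell in Su140. For this and the families that follow, the shares over all genes were 9.93% higher and 3.32% lower in Su113 and 15.7% higher and 8.7% lower in Su140. The 2 that fell were the receptors LpR1 and LpR2, at -1.15 (adjusted p = 0.0368) and -1.10 (adjusted p = 0.0325). Among 7 tested Toll receptors Toll-7 alone rose in Su113, and in Su140 Toll-7, Toll-6 and Tollo rose and Tl fell. Of 8 tested Sox genes, 0 rose and D fell in Su113, and in Su140 Sox21a, Sox14, Sox100B and SoxN rose. Among 3 tested Bruno genes bru1 rose in Su113, and bru2 and bru3 in Su140. Of 5 tested nucleoside transporter genes, CNT2 rose in Su113 and Ent1 in Su140, and of 10 tested class B scavenger receptor genes 4 rose in Su113 and 3 in Su140, CG3829 in both.

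By position, 6 of the 12 genes lay on 3L, where 19.6% of the tested protein-coding genes lie, 3 on 2R, 2 on 2L, 1 on 3R and 0 on the X, which holds 16.4%. They were long: the median span was 7756 bp against 2711 bp over tested protein-coding genes, and the median exon length was 3973.5 bp against 2043 bp. CPM is not scaled for length, so the minimum of 10 CPM can favour long transcripts. The genes compared with did not have to reach that minimum. The median number of exon blocks was 8 against 4. The genes next to them were looked up as well, and of 24 flanking genes 16 were tested, of which 1 rose in Su113, 4 rose and 1 fell in Su140, and 0 passed in wm4h. Over all genes 9.93% rose in Su113, and 15.7% rose and 8.7% fell in Su140, so 1 of 16 was near the share over all genes. The flanking gene that rose in both alleles was Hmt-1 beside cv-d, by 1.64 ± 0.29 for the allele Su113 (adjusted p = 0.0114) and by 1.41 ± 0.28 for the allele Su140 (adjusted p = 0.0135). CNT1, the paralog 21 bp after CNT2, did not pass in any genotype, and reads shared by such close copies may be split between them.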

How the data were processed

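Whole-number counts per gene, not normalized, were deposited by the authors as 1 table of 17753 genes and 16 libraries. The submitters' processing notes name the build dm6 and the package DESeq2, without saying what DESeq2 was used for. Which aligner, counter and strand setting made the counts is not given in the sources used here. Symbols and positions came from Ensembl release 115 (BDGP6, the dm6 assembly), which matched 17626 genes; the other 127 held 1.06% of the counts and kept their identifiers.

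Levels are CPM, the count over the library total times 1000000. The 12 libraries of Su113, Su140 and wm4h were fitted in 1 edgeR 4.0.16 quasi-likelihood model (R 4.3.3, limma 3.58.1) with TMM scaling (factors 0.893 to 1.10), 6 group means and 6 residual degrees of freedom, and filterByExpr kept 12151 genes and removed 5602. The Su(var)3-9 libraries were kept out of this fit so that the libraries that chose the genes set neither the filter nor the spread. Tests were two-sided. The common biological coefficient of variation was 0.43. Over all genes tested, the SD of the log2 CPM difference between replicates was 1.01 to 1.55 at St7-8 and 0.55 to 0.84 at NC14. Over all genes the shared spread is therefore smaller at St7-8 than its replicates show. Among the 12 genes the order was the other way, with an SD of 0.77 to 0.84 at St7-8 and 0.93 to 2.11 at NC14. Data were simulated for the wm4h stage change, and 11708 genes were tested in them. Of 100 genes set to change 8-fold 88 were called, of 100 set to change 4-fold 44, and of 11509 left unchanged 7. These totals add up to slightly more than the genes tested, so the shares are approximate. Whether the spread of these data matched that of the St7-8 replicates was not tested. How far these shares hold for the wm4h libraries themselves, where 0 of 12151 genes were called, was not tested.

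The 12 genes and all gene lists were chosen with earlier results of these data known, and the family lists after the 12 genes were found. All 12 genes are named, with the 3 genes just outside the threshold; relatives and neighbours were named after their values were seen. Alternatives were DESeq2 1.42.0, DESeq2 size factors, no filter on low counts, all 16 libraries, 1 stage alone, a replicate block and each replicate left out. Figures and tables used python 3.11.15, pandas 2.3.3, numpy 2.4.6 and matplotlib 3.10.9. No sequences are shown.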

Additional observations from a re-analysis of the deposited data

How the results depend on the processing

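Counts here are of the 12 genes past the threshold, except where all genes are named, which are counted in either direction. With DESeq2, 5 were higher in the wm4h stage change and 5 in Su140 over wm4h at St7-8. At NC14, 1 was higher and 1 lower in Su113 and likewise in Su140. There were 4 in the difference of the stage change for Su140, and 2 lower in Su113 over Su140. Of all 12151 genes, DESeq2 called 329 in the wm4h stage change and 862 in Su140 over wm4h at St7-8. At NC14 it called 643 of all genes in Su113 and 2345 in Su140. It called 1664 of all genes in the difference for Su140 and 1234 in Su113 over Su140. With all 16 libraries, 2 were higher in Su140 over wm4h at St7-8, 1 higher and 1 lower at NC14, and 2 lower in Su113 over Su140. Of all 12398 genes, this fit called 143 in Su140 over wm4h at St7-8, 1185 at NC14 and 297 in Su113 over Su140. With no filter on low counts, 2 were higher in Su140 over wm4h at St7-8, 1 at NC14 and 2 in the difference of the stage change for Su140. Of all 16027 genes, 168, 754 and 134 were called in these 3 comparisons. With DESeq2 size factors, 0 were higher in Su113 over wm4h at St7-8, where 223 of all 12151 genes were called. With the St7-8 libraries alone, 0 passed in Su113 over wm4h, Su140 over wm4h or Su113 over Su140. In each of these, 0 of all 11764 genes passed. With the NC14 libraries alone 1 was higher and 1 lower in Su140 over wm4h, where 3054 of all 10574 genes were called. With replicate 2 of St7-8 left out of all 3 genotypes, a choice made after seeing the data, 1 passed in the wm4h stage change, 0 in Su113 over wm4h at St7-8, and 1 higher and 1 lower in Su140 over wm4h at NC14.

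The labels link same-numbered samples by number alone. The correlation of their deviations from the group means ran between -0.51 and 0.34. Among St7-8 groups it was 0.34 for Su113 with Su140, -0.20 for Su113 with wm4h and -0.51 for Su140 with wm4h. For the other pairs of groups it ran between -0.06 and 0.13. At St7-8 the deviations were therefore related, with the wm4h numbers reversed, and the cause was not tested. With the replicate block, 0 were higher in Su113 over wm4h at St7-8, and CNT2 (adjusted p = 0.0640) and HGTX (0.0575) in Su113 and CG32053 (0.0701) in Su140 lost their stage calls. With the wm4h St7-8 numbers crossed, chosen after seeing the data, 2 were higher in Su140 over wm4h at St7-8. In that comparison 132 of all 12151 genes were called in either direction.

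With 1 replicate left out, where a lone library is assumed to vary like the other groups, the count ran between 0 and 3 in the Su113 stage change, 1 and 8 in that of Su140, 0 and 1 higher in Su113 over wm4h and 0 and 2 higher in Su140 over wm4h at St7-8, 0 and 1 higher in Su140 over wm4h at NC14, 0 and 2 in the difference of the stage change for Su140, and 0 and 1 lower in Su113 over Su140. Without either NC14 library of Su113, or without replicate 1 of Su140 at NC14, edgeR called 1 gene of the whole table in that stage change, against 1611 in Su113 and 2961 in Su140. Hml in the wm4h stage change, at -0.21, ran between -1.38 (without replicate 2 of St7-8) and 1.70 (without replicate 2 of NC14), and was 0.46 without replicate 1 of St7-8; the cause was not tested.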
